A study of Homo sapiens with 18 samples.

Results

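MCF10A-ErSrc is a human breast epithelial cell line that carries the oncogenic kinase v-Src fused to the hormone-binding part of the oestrogen receptor, so that tamoxifen switches the kinase on. The comparison made here is the one between all libraries of transformed cells and all libraries of untransformed cells, whether or not the cells had also been exposed to triptolide (TPL). It rests on 8 of the 18 samples of the series, the RNA-Seq libraries, with 4 in each arm. Tamoxifen was withheld from NT cells and given to TAM cells, which it transforms, and each kind was kept either in DMSO, the solvent, or in TPL (labelled TPL-125nM-4h, the dose and time). This gave the groups NT, NT + TPL, TAM and TAM + TPL, with 2 libraries each. By the methods, these are independent biological replicates. All libraries come from a single engineered line, and the labels give no passage or batch. TPL entered the model as a covariate, so a gene was called when its level differed between TAM and NT cells after the mean difference between TPL and DMSO had been taken out.

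Src is a non-receptor tyrosine kinase that acts at focal adhesions and cell junctions. In the MCF10A-ErSrc model its viral form is known to start a loop of inflammatory signalling in which NF-kB, IL6 and STAT3 keep each other active after the first signal has passed. TPL binds the XPB subunit of the transcription factor TFIIH and lowers transcription broadly, most visibly for mRNAs with a short life. Pooling both treatments asks which genes differed between transformed and untransformed cells on average over the treatments, which does not show that a difference was present in each.

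The libraries held between 7461309 and 8349448 expected counts (RSEM's estimate of the reads from each gene). The files listed 18485 to 18566 entries in libraries without TPL and 19584 to 20156 in those with TPL, out of 23604 entries seen in at least 1 library. On the first principal component, which took 58.7% of the variance of log2 CPM (counts scaled to library size), the TPL libraries lay apart from the DMSO libraries. On the second, with 25.5%, the 4 TAM libraries lay between 24.8 and 30.5 and the 4 NT libraries between -29.7 and -25.7. No library stood with the other arm. These are bulk samples, in which fewer cells of a type and less RNA per cell cannot be told apart.

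**Figure D1:**
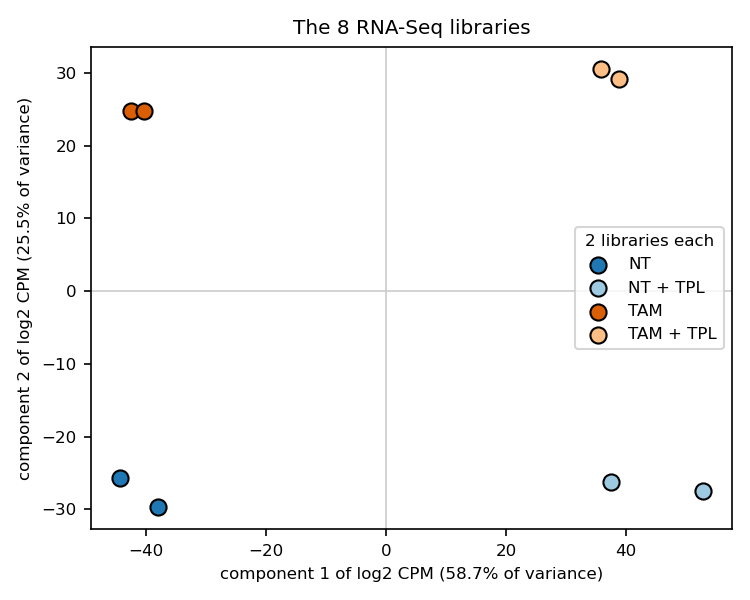
Principal components of log2 CPM, with 1 point for each of the 8 libraries and its score on the first (horizontal) and second (vertical) component. DMSO and TPL libraries separate along the first axis, and the 4 TAM libraries (24.8 to 30.5) lie above the 4 NT libraries (-29.7 to -25.7) along the second.

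Of 16948 entries tested with edgeR's quasi-likelihood test and Benjamini-Hochberg adjustment, 137 were higher in TAM cells (0.808%) and 144 were lower (0.85%) with an adjusted p not above 0.001 and a change of 1.2 or more on the log2 scale, which are the thresholds in the methods. At an adjusted p of at most 0.05 these counts were 427 (2.52%) and 443 (2.61%). The called rises had a median log2 fold change of 2.83 and the called falls a median size of 2.18. In CPM the 4 TAM libraries all lay above the 4 NT libraries for 128 of the 137 rises, and all below them for 139 of the 144 falls. Over all tested entries, 4.44% lay fully above and 5.49% fully below.

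The counts moved with the settings. Summing the entries that share a gene symbol, of which there were 1067 symbols, gave 259 rises and 282 falls among 15754 symbols, and leaving TPL out of the model gave 28 and 18. Scaling every library to equal GAPDH counts moved the median of all tested entries from -0.04 to -0.38 and the split to 96 rises against 296 falls, so directions below are relative to the TMM scaling. Leaving out 1 library gave 68 to 124 rises and 64 to 144 falls. The count of falls moved by less than 1.5 times only without NT + TPL replicate 2 (144), and the count of rises only without NT + TPL replicate 1 (94) or replicate 2 (124). Of the 73 named calls, 38 held in all 8 of these fits. AXL, CALML3, IGFBP6, RAB31 and SPP1 lost the call in every one, and ALOXE3, BBOX1, BCL3, CCN5, CDK1, CRP, DEFB103A, DEFB103B, DLGAP5, DST and TPM1 kept it in 1. BUB1, CDH1, COL12A1, CTSD, GBP1 and SAA1 kept it in 2. The libraries whose removal gave the lowest counts were TAM + TPL replicate 2 for rises and TAM + TPL replicate 1 for falls.

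The transgene and its known downstream loop were read first. ESR1, the oestrogen receptor whose hormone-binding part is in the fusion, had 199.7 and 248 FPKM in NT cells, 128 and 78.7 in NT + TPL cells, 95.3 and 68.5 in TAM cells and 36.9 and 39.8 in TAM + TPL cells. Its levels were lower in TAM than in NT cells within each treatment and lower with TPL than with DMSO within each cell kind, and NT + TPL replicate 2 overlapped the TAM libraries (log2 fold change -1.44, SE 0.174, adjusted p = 0.00103), just short of the call. SRC was likewise lower in TAM than in NT cells and lower with TPL than with DMSO, with 27.9 and 36.4 FPKM in NT cells, 13.7 and 8.57 in NT + TPL cells, 14.8 and 10.7 in TAM cells and 4.37 and 4.72 in TAM + TPL cells (log2 fold change -1.31, SE 0.176, adjusted p = 0.00178). Reads of the transgene and of the cell's own ESR1 and SRC cannot be told apart in these counts. STAT3, the transcription factor at the end of the loop, ranged from 38.1 to 65.7 FPKM in NT and from 50.8 to 74.5 FPKM in TAM libraries, and the arms overlapped (log2 fold change 0.31, SE 0.107, adjusted p = 0.114). IL6, the cytokine that drives it, had 0 and 0.1 FPKM in NT cells, 0 and 0 in NT + TPL cells, 2.93 and 2.23 in TAM cells and 0.54 and 0.1 in TAM + TPL cells. In counts it had 1 read in all NT libraries together against 56 in the TAM libraries, a ratio of 54.3 (exact 95% counting interval 9.36 to 2180.0), and its adjusted p of 0.00113 missed the threshold. The level in TAM cells came almost wholly from the DMSO libraries.

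Markers of mammary basal epithelium, the identity of MCF10A cells, were present in every library. Their summed level ran from 10400.0 to 17500.0 FPKM in NT and from 2100.0 to 4490.0 FPKM in TAM libraries, and 3 of the 10 markers fell (KRT5, KRT17 and TRIM29). The part of this lower marker level in the other results was not tested. TP63, the regulator of the basal state, was at 9.42 FPKM on average in NT and 12.2 FPKM in TAM cells. Of the luminal markers KRT8 fell, EPCAM was not called, and KRT19, PGR and ELF5 stayed at or below 0.2 FPKM in each library. Fibroblast markers summed to at most 22.9 FPKM in NT and 26.1 FPKM in TAM libraries, endothelial markers to at most 2.78 and 2.09 FPKM, and none of these members passed the call. The leukocyte list summed to 75.4 to 142 FPKM in NT and 306 to 520.0 FPKM in TAM libraries, through CD68, a lysosomal glycoprotein that rose (log2 fold change 2.52, SE 0.12, adjusted p = 4.55e-06), while PTPRC, which defines leukocytes, averaged 0.945 and 1.07 FPKM and CD3D and MS4A1 were not listed in any library.

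The 15 largest fitted rises among calls with enough signal and separate arms were named. STC1, the secreted glycoprotein stanniocalcin 1, had 2.91 and 2.64 FPKM in NT cells, 3.61 and 3.56 in NT + TPL cells, 543 and 553 in TAM cells and 833 and 744 in TAM + TPL cells. Both TAM groups were far above both NT groups, and the replicates lay close together (log2 fold change 7.70, SE 0.146, adjusted p = 3.85e-08). GZMB, the serine protease granzyme B of cytotoxic lymphocytes, had 1.2 and 0.67 FPKM in NT cells, 1.41 and 0.57 in NT + TPL cells, 243 and 201 in TAM cells and 373 and 279.6 in TAM + TPL cells (log2 fold change 8.10, SE 0.261, adjusted p = 8.1e-07). TMPRSS4, a transmembrane serine protease, had 0.07 and 0.18 FPKM in NT cells, 0.23 and 0.19 in NT + TPL cells, 33.3 and 29.1 in TAM cells and 80 and 81.2 in TAM + TPL cells, again with every TAM library above every NT library (log2 fold change 8.35, SE 0.211). SERPINE2, an inhibitor of thrombin and plasminogen activators, had 2.4 and 2.52 FPKM in NT cells, 2.36 and 2.57 in NT + TPL cells, 148 and 153 in TAM cells and 344 and 359 in TAM + TPL cells. It lay between 2.36 and 2.57 FPKM in the NT libraries and was higher with TPL than with DMSO in TAM cells (log2 fold change 6.54, SE 0.261). TNC, the matrix glycoprotein tenascin C, had 0.88 and 1.05 FPKM in NT cells, 0.69 and 1.05 in NT + TPL cells, 75.9 and 56.9 in TAM cells and 134 and 138 in TAM + TPL cells (log2 fold change 6.68, SE 0.303), in the same pattern. DYSF, the membrane repair protein dysferlin, rose by a log2 fold change of 7.17 and CHGB, the secretory granule protein chromogranin B, by 7.45.

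Several of these rises started from next to nothing. TDRD9, an RNA helicase of the germ line, had no count in the NT libraries and 2.5 and 1.98 FPKM in TAM and 5.3 and 4.66 FPKM in TAM + TPL cells, which was at least 46.7-fold higher against a floor of 3 counts per library. For TMEM255B, a membrane protein, there were 2 counts in all NT and 643 in all TAM libraries, a ratio of 312 (exact 95% counting interval 86 to 2580.0). SPP1, the matrix protein osteopontin, had 2 counts in all NT and 239 in all TAM libraries, a ratio of 116 (exact 95% counting interval 31.7 to 962), and CRP, the acute phase protein, had 2 counts in all NT and 237 in all TAM libraries, a ratio of 115 (exact 95% counting interval 31.5 to 954). The call of SPP1 held in 0 and that of CRP in 1 of the 8 fits that left out a library. These intervals cover counting error only. HBA1, alpha globin, was listed at 0 in the NT libraries and at 63.6 and 80.6 FPKM in TAM and 206 and 152 FPKM in TAM + TPL cells, at least 202-fold higher, but it shares reads with its near-identical copy HBA2. Summed over both genes alpha globin ran from 1.64 to 2.16 CPM in NT and from 67.3 to 132.0 CPM in TAM libraries, a ratio of 45.8. The beta-defensin copies DEFB103A and DEFB103B, antimicrobial peptides, received equal shares of the same reads and are uncertain one by one. Together they had no whole count in the NT libraries and 8.65 to 18.9 CPM in the TAM libraries.

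**Figure D2:**
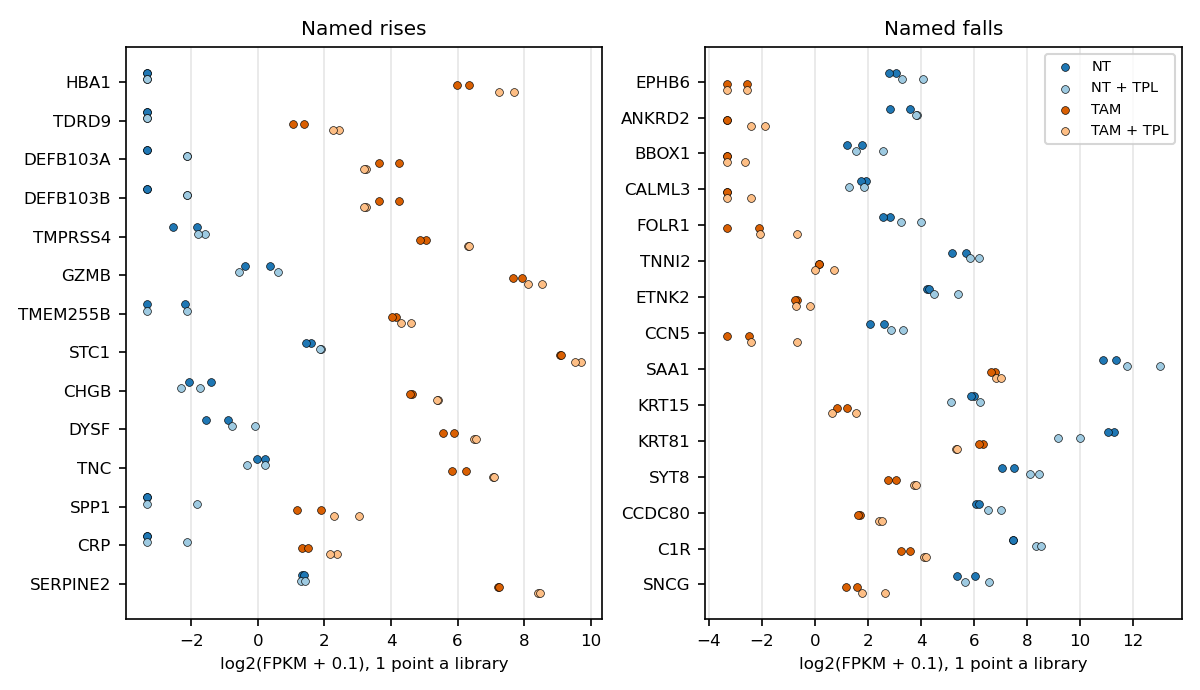
Levels of named rises (left) and named falls (right) as log2(FPKM + 0.1), with 1 point a library and the 4 groups set apart by colour and height within a row. In each row the 4 TAM libraries lie on one side of the 4 NT libraries, which the naming rule required, and STC1 runs from 2.64 to 3.61 FPKM in NT and from 543 to 833 FPKM in TAM libraries.

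Of the 15 largest fitted falls, named by the same rule, SAA1, the acute phase protein serum amyloid A1, had the highest mean level in NT cells, with 2619 and 1849.6 FPKM in NT cells, 3491 and 8371 in NT + TPL cells, 109 and 99.1 in TAM cells and 113 and 131 in TAM + TPL cells. The NT + TPL libraries differed from each other by more than the TAM libraries did, and all TAM libraries were below all NT libraries (log2 fold change -5.01, SE 0.43, adjusted p = 0.000444). With its close copy SAA2 it ran from 1240.0 to 5930.0 CPM in NT and from 77.8 to 97.8 CPM in TAM libraries. C1R, the protease that starts the classical complement cascade, had 176 and 176 FPKM in NT cells, 321 and 371 in NT + TPL cells, 11.9 and 9.45 in TAM cells and 17.2 and 18.1 in TAM + TPL cells (log2 fold change -4.18, SE 0.147, adjusted p = 1.19e-06). It was higher with TPL than with DMSO in both cell kinds. KRT81, a hair keratin, had 2525 and 2123 FPKM in NT cells, 1032 and 580.0 in NT + TPL cells, 80.2 and 72.6 in TAM cells and 39.5 and 41 in TAM + TPL cells (log2 fold change -4.62, SE 0.225), and summed with its close copy KRT86 it fell from a mean of 3060.0 CPM (SD 1790.0, n = 4) to 114.0 CPM (SD 43.3, n = 4). An SD with n = 4, here and below, pools the DMSO and TPL libraries of an arm and so includes the difference between treatments. CCDC80, a secreted matrix protein, had 66.7 and 72.6 FPKM in NT cells, 129.6 and 91.5 in NT + TPL cells, 3.14 and 3 in TAM cells and 5.23 and 5.63 in TAM + TPL cells (log2 fold change -4.46, SE 0.144). SYT8, a synaptotagmin, fell by 4.49 on the log2 scale, SNCG, gamma-synuclein, by 4.15, TNNI2, a troponin of fast skeletal muscle, by 5.62, ETNK2, an ethanolamine kinase, by 5.49, FOLR1, the folate receptor, by 5.76, and CCN5, a matricellular protein, by 5.36.

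Another 4 falls reached almost no reads in TAM cells. EPHB6, an ephrin receptor without kinase activity, had 8.15 and 6.89 FPKM in NT cells, 16.8 and 9.75 in NT + TPL cells, 0.07 and 0 in TAM cells and 0 and 0.07 in TAM + TPL cells (log2 fold change -8.08, SE 0.494). ANKRD2, an ankyrin repeat protein of muscle, had 559 counts in all NT and 3 in all TAM libraries, a ratio of 192 (exact 95% counting interval 65.4 to 935). For BBOX1, the last enzyme of carnitine synthesis, there were 212 counts in all NT and 1 in all TAM libraries, a ratio of 219 (exact 95% counting interval 38.8 to 8680.0), and for CALML3, an epithelial calmodulin-like protein, 141 counts in all NT and 1 in all TAM libraries, a ratio of 145 (exact 95% counting interval 25.7 to 5780.0). The call of CALML3 held in 0 and that of BBOX1 in 1 of the 8 fits that left out a library.

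Counts of calls in the lists are to be read against all tested entries, of which 0.808% were called higher and 0.85% lower. With entries summed per symbol these shares were 1.64% and 1.79%. A median within a treatment covers only the members that passed the filter in those libraries, so the medians of a list can be over different members. Genes of cell division had the highest median of the 30 lists. Mitosis and G2/M genes had 6 called higher and 0 lower of 30 tested members (19 and 0 at an adjusted p up to 0.05), with a median log2 fold change of 1.64 over all 8 libraries, 2.11 with DMSO and 1.0 with TPL, against -0.04 over all tested entries, and 30 of the 30 were above 0. In 19 of them all TAM libraries lay above all NT libraries. CDK1, the kinase that drives entry into mitosis, had 2.19 and 1.5 FPKM in NT cells, 2.44 and 2.9 in NT + TPL cells, 7.66 and 8.78 in TAM cells and 8.59 and 12.3 in TAM + TPL cells (log2 fold change 2.04, SE 0.219, adjusted p = 0.000514). TPX2, a spindle assembly factor, had 4.08 and 3.88 FPKM in NT cells, 2.24 and 1.88 in NT + TPL cells, 14 and 15.2 in TAM cells and 7.29 and 7.38 in TAM + TPL cells (log2 fold change 1.85, SE 0.125). TPX2 levels, unlike those of CDK1, were lower with TPL than with DMSO in both cell kinds, and TAM was above NT in each. BUB1, a kinase of the spindle checkpoint, rose by a log2 fold change of 2.53, DLGAP5, a spindle protein, by 2.85, KIF14, a mitotic kinesin, by 1.81 and UBE2C, the ubiquitin-conjugating enzyme of the anaphase-promoting complex, by 1.83. MKI67, the proliferation marker, averaged 1.72 FPKM in NT and 7.78 FPKM in TAM cells and missed the call (adjusted p = 0.00949). G1/S and DNA replication genes had 0 called higher and 1 lower of 33 tested members (5 and 1 at an adjusted p up to 0.05), with a median log2 fold change of 0.68 over all 8 libraries, 1.0 with DMSO and 0.28 with TPL. The lone fall among them was CDKN1C, the cell cycle inhibitor p57, with 26.2 and 19.8 FPKM in NT cells, 47.6 and 27.8 in NT + TPL cells, 1.22 and 0.81 in TAM cells and 3.58 and 4.39 in TAM + TPL cells (log2 fold change -3.76, SE 0.316, adjusted p = 0.000148), and MCM2, part of the replicative helicase, was nearest to a rise (1.26, adjusted p = 0.00187). p53 targets had 0 called higher and 1 lower of 18 tested members (0 and 2 at an adjusted p up to 0.05), with a median log2 fold change of -0.32 over all 8 libraries, -0.3 with DMSO and -0.34 with TPL. PERP, a p53 target and desmosome protein, fell by 1.73 on the log2 scale, and SFN, the 14-3-3 protein sigma, missed the call at -1.21 (adjusted p = 0.00103).

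Keratins are the intermediate filaments of epithelium, and 7 of them fell. The keratin list had 0 called higher and 7 lower of 18 tested members (1 and 10 at an adjusted p up to 0.05), with a median log2 fold change of -1.96 over all 8 libraries, -1.7 with DMSO and -0.25 with TPL. These medians need not be over the same keratins, so they do not show how far a given keratin changed in each treatment. KRT5, the basal keratin, had 6249.6 and 5776 FPKM in NT cells, 4629.7 and 3677 in NT + TPL cells, 1308 and 1308 in TAM cells and 475 and 434 in TAM + TPL cells. KRT17, another basal keratin, had 7284 and 6144 FPKM in NT cells, 5805 and 4947 in NT + TPL cells, 1554 and 1408 in TAM cells and 831 and 742 in TAM + TPL cells. In both, the TAM + TPL libraries were the lowest of all (log2 fold change -2.70, SE 0.226 for KRT5 and -2.48, SE 0.172 for KRT17). KRT15 fell by 4.84, KRT7 by 2.37 and KRT8 by 1.55 on the log2 scale. KRT6A, summed with its copies KRT6B and KRT6C because reads of these near-identical genes cannot be assigned with certainty, was at a mean of 7490.0 CPM (SD 3440.0, n = 4) in NT and 8470.0 CPM (SD 3210.0, n = 4) in TAM cells. KRT18, the partner of KRT8, averaged 369.0 and 411.0 FPKM. Cornified envelope and keratinocyte differentiation genes had 1 called higher and 1 lower of 13 tested members (1 and 2 at an adjusted p up to 0.05), with a median log2 fold change of -1.7 over all 8 libraries, -3.25 with DMSO and -0.72 with TPL. The rise there was ALOXE3, a lipoxygenase of the skin barrier (3.32), and the fall was CALML3. TGM1, a transglutaminase that crosslinks the envelope, averaged 65.5 FPKM in NT and 7.65 FPKM in TAM cells (adjusted p = 0.0468).

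Junction genes and markers of a mesenchymal state held 1 call each. Epithelial junctions and regulators had 0 called higher and 1 lower of 26 tested members (0 and 2 at an adjusted p up to 0.05), with a median log2 fold change of -0.42 over all 8 libraries, -0.62 with DMSO and -0.32 with TPL. The call was CDH1, E-cadherin, with 102 and 139 FPKM in NT cells, 127 and 79.6 in NT + TPL cells, 45 and 41.3 in TAM cells and 53.8 and 55 in TAM + TPL cells. Its log2 fold change was -1.20 (SE 0.174, adjusted p = 0.000356), at the fold change threshold itself. JUP, plakoglobin, which links cadherins to the cytoskeleton, stood at -1.12 (adjusted p = 0.00408), and CLDN1, a tight junction claudin, averaged 115.0 FPKM in NT and 6.76 FPKM in TAM cells, with a wide spread in NT cells (SD 103.0, n = 4) and an adjusted p of 0.0154. Mesenchymal regulators and markers had 0 called higher and 1 lower of 14 tested members (2 and 1 at an adjusted p up to 0.05), with a median log2 fold change of 0.21 over all 8 libraries, 0.38 with DMSO and -0.04 with TPL, the median over all 8 turning to -0.14 under GAPDH scaling. VIM, vimentin, averaged 463.0 and 506.0 FPKM, CDH2, N-cadherin, 1.46 and 1.33 FPKM, and SNAI2, the repressor Slug, 13.6 and 11.8 FPKM in NT and TAM cells. FSTL1, a secreted follistatin-like protein, fell by 1.83, and ZEB1, a repressor of E-cadherin, stood at 1.3 (adjusted p = 0.00111). Myoepithelial and contractile genes had 0 called higher and 3 lower of 11 tested members (0 and 3 at an adjusted p up to 0.05), with a median log2 fold change of -0.3 over all 8 libraries, -0.59 with DMSO and -0.26 with TPL. CALD1, the actin-binding protein caldesmon, had 68.5 and 80.7 FPKM in NT cells, 73.5 and 81.5 in NT + TPL cells, 25.4 and 27.9 in TAM cells and 18.1 and 22.8 in TAM + TPL cells (log2 fold change -1.70, SE 0.153). TAGLN, transgelin, fell by 1.91 and TPM1, tropomyosin 1, by 1.34, while smooth muscle actin (ACTA2) averaged 13.6 and 13.2 FPKM.

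Extracellular matrix genes had 1 called higher and 4 lower of 26 tested members (2 and 9 at an adjusted p up to 0.05), with a median log2 fold change of -0.54 over all 8 libraries, -0.76 with DMSO and -0.62 with TPL. TGFBI, an adhesion protein of the matrix, had 877 and 1022 FPKM in NT cells, 921 and 826 in NT + TPL cells, 268 and 278 in TAM cells and 161 and 172 in TAM + TPL cells. Every TAM library was below every NT library, and TAM + TPL was lowest (log2 fold change -2.10, SE 0.159, adjusted p = 6.22e-05). The basement membrane collagen COL4A6 fell by 2.04, COL12A1 by 1.87 and COL7A1, which anchors the basement membrane, by 1.86, against the rise of TNC. Matrix proteases and inhibitors had 4 called higher and 2 lower of 29 tested members (10 and 3 at an adjusted p up to 0.05), with a median log2 fold change of 0.41 over all 8 libraries, -0.32 with DMSO and 0.74 with TPL. CTSL, the lysosomal protease cathepsin L, had 28.2 and 34.8 FPKM in NT cells, 32.1 and 33.8 in NT + TPL cells, 674 and 739 in TAM cells and 1435 and 1441 in TAM + TPL cells (log2 fold change 4.95, SE 0.224, adjusted p = 4.36e-06). It lay between 28.2 and 34.8 FPKM in the NT libraries and was higher with TPL than with DMSO in TAM cells. CTSB, cathepsin B, averaged 166.0 FPKM (SD 36.5, n = 4) in NT and 1520.0 FPKM (SD 334.0, n = 4) in TAM cells (log2 fold change 3.19, SE 0.137), and ADAM19, a membrane metalloprotease, had 0.48 and 0.84 FPKM in NT cells, 0.29 and 0.56 in NT + TPL cells, 11.6 and 11.6 in TAM cells and 21.4 and 20.9 in TAM + TPL cells (log2 fold change 4.84). MMP28, an epithelial metalloprotease, fell by 3.59 and TIMP3, a metalloprotease inhibitor bound to the matrix, by 2.14. CTSD, another cathepsin, held in the list of oestrogen receptor targets, fell by 1.34.

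Acute phase, complement and antimicrobial genes split. That list had 2 called higher and 5 lower of 15 tested members (2 and 8 at an adjusted p up to 0.05), with a median log2 fold change of -1.92 over all 8 libraries, -2.08 with DMSO and -1.55 with TPL. It does not hold CRP, DEFB103A and DEFB103B, which were called higher, so these counts leave them out. SERPINA1, the elastase inhibitor alpha-1-antitrypsin, had 54.3 and 44.9 FPKM in NT cells, 100.03 and 98.8 in NT + TPL cells, 1326 and 1376 in TAM cells and 1867 and 1582 in TAM + TPL cells (log2 fold change 4.44, SE 0.193, adjusted p = 3.84e-06), and HP, haptoglobin, rose from a mean of 1.91 to 26.2 FPKM (log2 fold change 3.85). Against them C3, the central complement protein, had 159 and 180.1 FPKM in NT cells, 237 and 341 in NT + TPL cells, 20.9 and 20.6 in TAM cells and 29.1 and 22.8 in TAM + TPL cells (log2 fold change -3.26, SE 0.193), C1S, the partner of C1R, fell by 2.71, and SLPI, a secreted protease inhibitor, by 2.13. The S100 list had 2 called higher and 0 lower of 14 tested members (3 and 0 at an adjusted p up to 0.05), with a median log2 fold change of 0.0 over all 8 libraries, 0.13 with DMSO and -0.02 with TPL (-0.35 over all 8 under GAPDH scaling). S100A8 and S100A9 form the heterodimer calprotectin. S100A9 had 120.1 and 86.1 FPKM in NT cells, 124 and 275 in NT + TPL cells, 3769.5 and 3588 in TAM cells and 5736 and 6868 in TAM + TPL cells and S100A8 had 84.4 and 51.8 FPKM in NT cells, 53.4 and 130.4 in NT + TPL cells, 1761 and 1903 in TAM cells and 2649 and 2382 in TAM + TPL cells. Both were higher in every TAM library than in any NT library (log2 fold change 5.06, SE 0.292 and 4.73, SE 0.295). S100A10 and S100A6 averaged 580.0 and 759.0 FPKM in NT and 582.0 and 734.0 FPKM in TAM cells. SERPINB3 and SERPINB4, near-identical protease inhibitors of squamous epithelium that are uncertain one by one, together ran from 51.4 to 62.6 CPM in NT and from 1940.0 to 2440.0 CPM in TAM libraries, a ratio of 38.3.

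Among cytokine genes, 4 rose and 1 fell. Chemokines and interleukins had 4 called higher and 1 lower of 21 tested members (6 and 2 at an adjusted p up to 0.05), with a median log2 fold change of 0.63 over all 8 libraries, 0.69 with DMSO and 0.28 with TPL. CSF3, the granulocyte colony-stimulating factor, had 31.6 and 32.2 FPKM in NT cells, 1.55 and 0.75 in NT + TPL cells, 255 and 239.6 in TAM cells and 9.93 and 6.72 in TAM + TPL cells. TAM cells were higher within each treatment, by a log2 fold change of 2.99 with DMSO and 2.83 with TPL, and the arms overlapped, with lower levels under TPL in both cell kinds. CXCL3, a neutrophil chemokine, also overlapped between arms and rose from a mean of 24.5 FPKM in NT to 123.0 FPKM in TAM cells (log2 fold change 2.08, SE 0.214). IL24, a cytokine of the IL10 family, had 2.44 and 1.69 FPKM in NT cells, 4.54 and 4.61 in NT + TPL cells, 42.5 and 34.5 in TAM cells and 35.4 and 38.7 in TAM + TPL cells (log2 fold change 3.61, SE 0.276), and its arms did not overlap. IL33, an alarmin, rose by a log2 fold change of 4.03. IL18, an inflammasome cytokine, fell, with 111 and 95.6 FPKM in NT cells, 93.9 and 87.7 in NT + TPL cells, 24.4 and 25.4 in TAM cells and 18.1 and 20.9 in TAM + TPL cells (log2 fold change -2.14, SE 0.118, adjusted p = 9.64e-06).

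Signalling lists around IL6, NF-kB and AP-1 held 1 call in all, where 0.808% of all tested entries were called higher and 0.85% lower. The IL6 and STAT3 loop had 1 called higher and 0 lower of 23 tested members (3 and 0 at an adjusted p up to 0.05), with a median log2 fold change of -0.05 over all 8 libraries, -0.2 with DMSO and -0.01 with TPL. Its call was BCL3, an atypical inhibitor of NF-kB, with 57.7 and 43.8 FPKM in NT cells, 3.14 and 1.63 in NT + TPL cells, 191 and 176 in TAM cells and 13.8 and 9.07 in TAM + TPL cells. As with CSF3, the difference between TAM and NT was there within each treatment (2.02 over all 8 libraries, SE 0.213) and the levels were lower with TPL in both cell kinds. SOCS3, the feedback inhibitor of STAT3, had a log2 fold change of 4.21 with DMSO and 1.44 with TPL, and missed the call over all 8 libraries (2.87, SE 0.64, adjusted p = 0.0412). NF-kB subunits, inhibitors and targets had 0 called higher and 0 lower of 19 tested members (0 and 1 at an adjusted p up to 0.05), with a median log2 fold change of -0.11 over all 8 libraries, -0.07 with DMSO and -0.2 with TPL. The smallest p belonged to TNIP1, an inhibitor of NF-kB (-0.78, adjusted p = 0.00347), and IKBKE, an IKK-related kinase (-1.86, adjusted p = 0.0108). AP-1 and immediate early genes had 0 called higher and 0 lower of 16 tested members (1 and 2 at an adjusted p up to 0.05), with a median log2 fold change of -0.18 over all 8 libraries, -0.18 with DMSO and 0.13 with TPL, led by MAFF, a small Maf factor (-1.36, adjusted p = 0.00147), and BATF3, a basic leucine zipper factor (3.65, adjusted p = 0.00178). BATF3 had 5.82 and 5.2 FPKM in NT cells, 0.4 and 0.81 in NT + TPL cells, 39.9 and 36 in TAM cells and 18.4 and 25.1 in TAM + TPL cells, and its 4 TAM libraries were above its 4 NT libraries.

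Around Src itself, Src family kinases and focal adhesion genes had 0 called higher and 2 lower of 23 tested members (0 and 5 at an adjusted p up to 0.05), with a median log2 fold change of -0.18 over all 8 libraries, -0.11 with DMSO and -0.2 with TPL. CAV1, caveolin 1, the scaffold of caveolae and a substrate of Src, had 252 and 282 FPKM in NT cells, 110.3 and 99.58 in NT + TPL cells, 28.3 and 33.3 in TAM cells and 10 and 7.4 in TAM + TPL cells. TAM was below NT within each treatment, and the TPL libraries were below the DMSO libraries in both cell kinds (log2 fold change -3.34, SE 0.165, adjusted p = 4.98e-06). PTK2B, the focal adhesion kinase PYK2, had 26.6 and 29.1 FPKM in NT cells, 53.7 and 47.6 in NT + TPL cells, 11.5 and 10.4 in TAM cells and 21.8 and 18.8 in TAM + TPL cells (log2 fold change -1.34, SE 0.107), while PTK2, FAK itself, averaged 19.7 FPKM in both arms. Integrins, laminins and hemidesmosomes had 0 called higher and 1 lower of 22 tested members (2 and 1 at an adjusted p up to 0.05), with a median log2 fold change of -0.02 over all 8 libraries, -0.22 with DMSO and 0.32 with TPL. Its call was DST, dystonin, which ties keratin filaments to hemidesmosomes (-1.61, SE 0.182), and ITGB3, the integrin beta 3 subunit, was next (mean 0.065 and 0.96 FPKM, adjusted p = 0.00421).

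**Figure D3:**
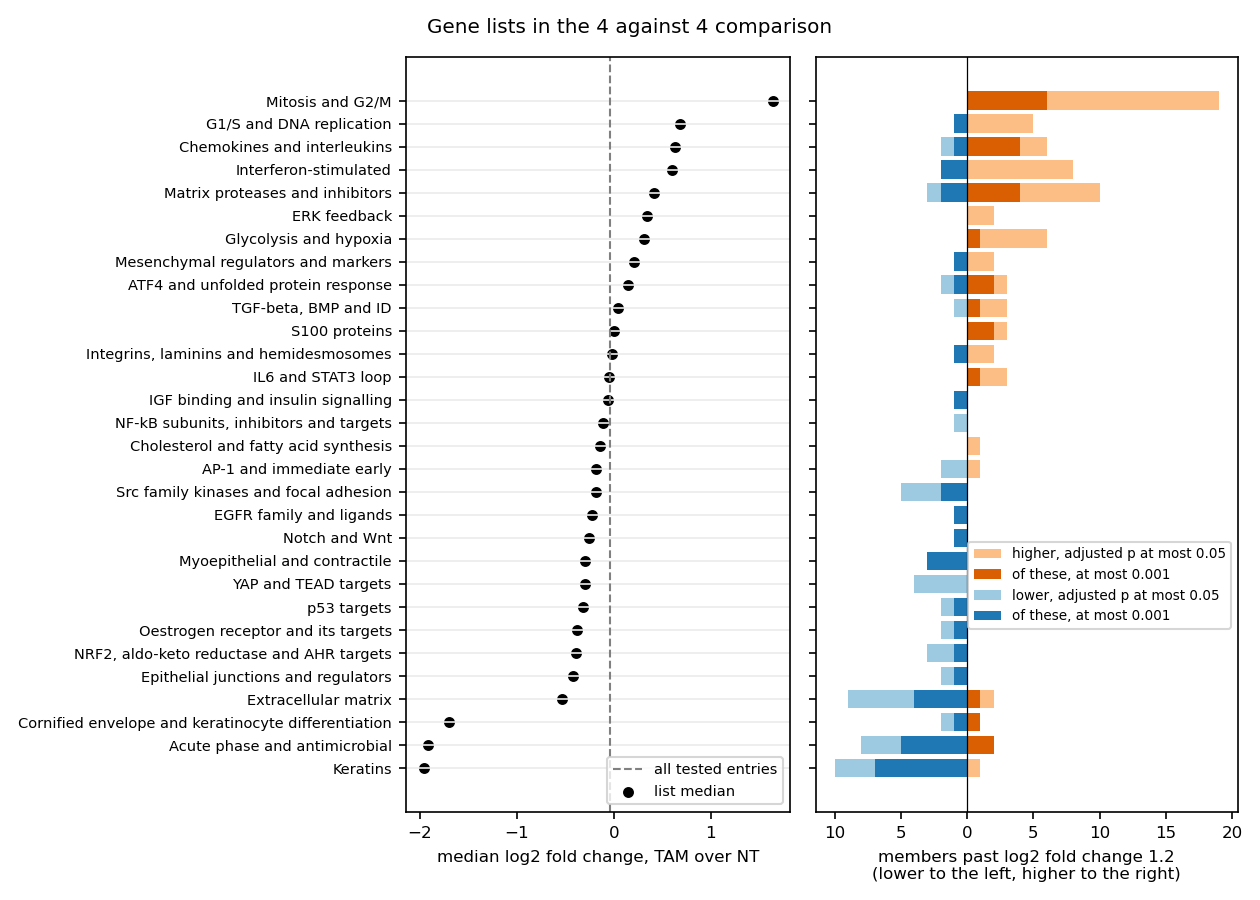
The 30 gene lists, ordered by the median log2 fold change of their tested members (left, points, with the median of all tested entries at -0.04 as a dashed line), and the number of members past a log2 fold change of 1.2 (right), falls to the left of 0 and rises to the right, with the darker part of a bar at an adjusted p of at most 0.001. Mitosis and G2/M genes have the highest median (1.64, with 19 members higher at 0.05) and keratins the lowest (-1.96, with 10 lower).

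The list of EGFR family and ligands also holds MET, AXL and EPHA2, receptor kinases of other families. It had 0 called higher and 1 lower of 15 tested members (0 and 1 at an adjusted p up to 0.05). The median log2 fold change was -0.23 over all 8 libraries, -0.31 with DMSO and -0.16 with TPL. Its call was AXL, with 17.2 and 17.2 FPKM in NT cells, 29.4 and 18.2 in NT + TPL cells, 3.84 and 5.73 in TAM cells and 5.82 and 3.84 in TAM + TPL cells (log2 fold change -2.08, SE 0.229). EPHA2 was at 0.73 (adjusted p = 0.0196). ERK feedback genes had 0 called higher and 0 lower of 17 tested members (2 and 0 at an adjusted p up to 0.05), with a median log2 fold change of 0.34 over all 8 libraries, 0.18 with DMSO and 0.11 with TPL, the median over all 8 turning to -0.02 under GAPDH scaling, with ETV4 at 2.22 (adjusted p = 0.00173) and SPRED1, an inhibitor of the pathway, at 0.66 (adjusted p = 0.00386). TGF-beta, BMP and ID genes had 1 called higher and 0 lower of 22 tested members (3 and 1 at an adjusted p up to 0.05), with a median log2 fold change of 0.04 over all 8 libraries, -0.09 with DMSO and 0.07 with TPL (-0.3 over all 8 under GAPDH scaling). LTBP1, which stores latent TGF-beta in the matrix, had 5.46 and 8.45 FPKM in NT cells, 8.01 and 8.47 in NT + TPL cells, 26.5 and 22.2 in TAM cells and 31.1 and 38 in TAM + TPL cells (log2 fold change 1.93, SE 0.161). ID3, an inhibitor of basic helix-loop-helix factors, had 40.4 and 40.2 FPKM in NT cells, 18.6 and 17.7 in NT + TPL cells, 2.61 and 2.8 in TAM cells and 5.6 and 5.24 in TAM + TPL cells and missed the call (log2 fold change -2.79, adjusted p = 0.00493). YAP and TEAD targets had 0 called higher and 0 lower of 17 tested members (0 and 4 at an adjusted p up to 0.05), with a median log2 fold change of -0.3 over all 8 libraries, -0.55 with DMSO and 0.03 with TPL, led by the matricellular genes CCN2 (-1.91, adjusted p = 0.00186) and CCN1 (-1.84, adjusted p = 0.0196). IGF binding and insulin signalling genes had 0 called higher and 1 lower of 12 tested members (0 and 1 at an adjusted p up to 0.05), with a median log2 fold change of -0.06 over all 8 libraries, -1.19 with DMSO and 0.1 with TPL, the fall being IGFBP6, which binds IGF2 (-1.39, SE 0.153), with IRS2 at -1.04 (adjusted p = 0.0184). Notch and Wnt genes had 0 called higher and 1 lower of 18 tested members (0 and 1 at an adjusted p up to 0.05), with a median log2 fold change of -0.26 over all 8 libraries, -0.46 with DMSO and 0.05 with TPL. SFRP1, a secreted inhibitor of Wnt, had 51 and 70.1 FPKM in NT cells, 81.7 and 50.9 in NT + TPL cells, 13.3 and 11.5 in TAM cells and 12.3 and 12.9 in TAM + TPL cells (log2 fold change -2.34, SE 0.171, adjusted p = 5.12e-05), and JAG2, a Notch ligand, was at -0.41 (adjusted p = 0.137).

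Interferon-stimulated genes had 0 called higher and 2 lower of 39 tested members (8 and 2 at an adjusted p up to 0.05), with a median log2 fold change of 0.6 over all 8 libraries, 0.8 with DMSO and 0.31 with TPL. The calls were the guanylate-binding proteins GBP2, with 5.66 and 5.02 FPKM in NT cells, 11.2 and 9.59 in NT + TPL cells, 0.74 and 0.58 in TAM cells and 1.37 and 0.94 in TAM + TPL cells (log2 fold change -3.10, SE 0.186), and GBP1 (-1.38, SE 0.137). Members higher at 0.05 included the antiviral GTPase MX1 (means 0.0725 and 1.23 FPKM, adjusted p = 0.00334), OAS2 (0.438 and 2.4 FPKM, adjusted p = 0.00177) and IFI27 (3.59 and 14.5 FPKM, adjusted p = 0.00905). In 11 of the 39 tested members all TAM libraries lay above all NT libraries, and in 4 all lay below.

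Glycolysis and hypoxia genes had 1 called higher and 0 lower of 30 tested members (6 and 0 at an adjusted p up to 0.05), with a median log2 fold change of 0.31 over all 8 libraries, 0.49 with DMSO and 0.28 with TPL, the median over all 8 turning to -0.02 under GAPDH scaling. VEGFA, the angiogenic growth factor and a hypoxia target, had 17.9 and 19.1 FPKM in NT cells, 13.5 and 11.8 in NT + TPL cells, 74 and 74.6 in TAM cells and 44.1 and 42.1 in TAM + TPL cells (log2 fold change 1.87, SE 0.111, adjusted p = 1.46e-05), and EPAS1, the hypoxia factor HIF2-alpha, stood at 1.57 (adjusted p = 0.00108). GAPDH itself averaged 3070.0 FPKM (SD 527.0, n = 4) in NT and 3890.0 FPKM (SD 334.0, n = 4) in TAM cells. It is a member of this list, so GAPDH scaling takes out its own change and is not independent of the list. ATF4 and unfolded protein response genes had 2 called higher and 1 lower of 20 tested members (3 and 2 at an adjusted p up to 0.05), with a median log2 fold change of 0.15 over all 8 libraries, 0.01 with DMSO and 0.26 with TPL. PHGDH, the first enzyme of serine synthesis, had 2.32 and 1.77 FPKM in NT cells, 7.14 and 8.09 in NT + TPL cells, 53.5 and 53.9 in TAM cells and 91.3 and 75.5 in TAM + TPL cells (log2 fold change 4.01, SE 0.277, adjusted p = 4.88e-05). ASNS, asparagine synthetase, rose by 1.37, and SLC3A2, the heavy chain of amino acid transporters, fell by 1.27. NRF2, aldo-keto reductase and AHR targets had 0 called higher and 1 lower of 20 tested members (0 and 3 at an adjusted p up to 0.05), with a median log2 fold change of -0.39 over all 8 libraries, -0.36 with DMSO and -0.48 with TPL, the fall being the quinone reductase NQO1 (-1.66, SE 0.166). ALDH3A1, an aldehyde dehydrogenase, had 55.1 and 43.8 FPKM in NT cells, 102.90 and 36.7 in NT + TPL cells, 0.94 and 0 in TAM cells and 0.82 and 0.41 in TAM + TPL cells and an adjusted p of 0.00112. Cholesterol and fatty acid synthesis genes had 0 called higher and 0 lower of 31 tested members (1 and 0 at an adjusted p up to 0.05), with a median log2 fold change of -0.14 over all 8 libraries, -0.32 with DMSO and 0.05 with TPL. LSS, lanosterol synthase, had an adjusted p of 0.000205 with a log2 fold change of -1.19, short of the fold change, and the sterol exporter ABCA1 averaged 0.025 and 0.672 FPKM (adjusted p = 0.00671). Oestrogen receptor and its targets had 0 called higher and 1 lower of 13 tested members (0 and 2 at an adjusted p up to 0.05), with a median log2 fold change of -0.38 over all 8 libraries, -0.5 with DMSO and -0.37 with TPL. Over all lists, 25 of 621 distinct tested symbols were called higher and 38 lower, of which 41 symbols had counts summed over several entries and were tested in a fit of summed counts (background 1.64% higher and 1.79% lower). Values of CDH1, CTSB, HP, IL6, IL33, KIF14 and S100A8 come from that fit. Members given beyond the naming rule, such as TP63, CD68, MKI67, CSF3, CLDN1 and TGM1, were chosen after their values were seen. The lists were drawn up with earlier results of these data known, so their counts are not independent evidence of direction.

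The 4 libraries with DMSO and the 4 with TPL share no library, so genes called in one set can be read in the other. With DMSO alone 185 of 15117 entries rose (1.22%) and 186 fell (1.23%). Of the 178 rises that were tested in the TPL libraries, 168 (94.4%) had the same sign there, with a median log2 fold change of 1.73 against 2.65 in the DMSO libraries. Of 171 falls, 158 (92.4%) had the same sign, with -1.93 against -2.46. Over all 14420 entries tested in both sets, 63.8% had the same sign. A nominal p under 0.05 with the same sign was reached by 142 of the rises and 130 of the falls. With TPL alone the same test called 24 rises (0.15%) and 5 falls (0.0312%), and 293 (1.83%) and 362 (2.26%) at an adjusted p of at most 0.05. The NT + TPL replicates differed most from each other (chi-square per degree of freedom 30.5, against 9.36 to 13.7 in the other groups). The part of this spread in the smaller number of calls was not tested. All 24 rises and all 5 falls had the same sign in the DMSO libraries, and the rises had a median of 6.25 with TPL and 5.65 with DMSO. Of the 137 rises and 144 falls called in all 8 libraries, 22 and 4 were also called in the TPL libraries alone, and 96 and 90 in the DMSO libraries alone.

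**Figure D4:**
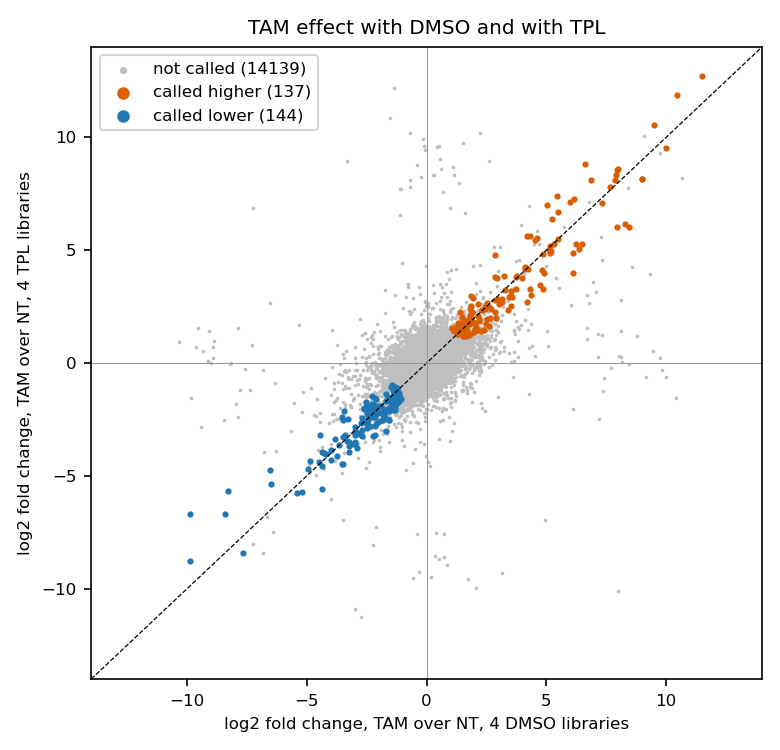
Log2 fold change of TAM over NT in the 4 DMSO libraries (horizontal) and in the 4 TPL libraries (vertical), with 1 point for each of the 14420 entries tested in both and the dashed line of equal change. The 137 entries called higher and the 144 called lower in all 8 libraries lie in the upper right and lower left, which the pooled call itself favours. Uncalled points far from the line on one axis are entries with large changes in a single treatment.

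The additive model leaves out any difference of the TAM effect between treatments, so that difference was tested on its own. edgeR's test of the interaction called 0 of 16948 entries at the thresholds used above, with 26 in each direction at an adjusted p of at most 0.05 (0.153% each) and 1732 at an unadjusted p under 0.05 (10.2%). DESeq2 called 84 entries with a more positive TAM effect under TPL and 66 with a more negative one. Among the called genes, 22 of 137 rises and 18 of 144 falls had an unadjusted p under 0.05, and 0 an adjusted p of at most 0.05. The median difference was -0.04 for rises and -0.15 for falls. Calls and differences come from the same 8 libraries, and a call in the additive fit favours genes whose TAM effect was alike in both treatments. These counts and medians are thus not independent evidence of a shared effect. The called genes with the smallest p of the difference were CLEC2B, a C-type lectin, RAB31, a small GTPase of vesicle traffic, and SERPINE2. CLEC2B had 0.54 and 0.66 FPKM in NT cells, 1.2 and 1.61 in NT + TPL cells, 39.5 and 42.9 in TAM cells and 21.8 and 23.2 in TAM + TPL cells, a log2 fold change of 6.12 with DMSO and 3.99 with TPL (adjusted p = 0.0589 by edgeR). RAB31 had 1.49 and 1.77 FPKM in NT cells, 0.84 and 0.52 in NT + TPL cells, 11 and 12.2 in TAM cells and 17.6 and 20.2 in TAM + TPL cells, with 2.87 and 4.79 (adjusted p = 0.075 by edgeR). With TPL, CLEC2B was lower in TAM cells and higher in NT cells than with DMSO, and RAB31 the reverse.

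RNAPII ChIP-Seq peak lists, with 1 list for each condition, gave a second readout at the start sites of the called genes. A gene was counted when the start site of its main transcript (GENCODE release 44 on build 37) lay in a listed peak. For the genes called higher the share with a peak was 45.2% in the NT list (Wilson 95% interval 37.04 to 53.60%) and 50.4% in the TAM list (42.04 to 58.68%), of 135 genes with a start site. For the genes called lower it was 50.4% (42.15 to 58.55%) and 32.4% (25.16 to 40.54%) of 139. Over all 14890 tested genes it was 63.5% and 56.0%. With TPL the shares for genes called higher were 28.9% in NT + TPL and 38.5% in TAM + TPL, for genes called lower 19.4% and 13.7%, and for all genes 50.7% and 49.8%. These intervals cover counting error only, and with 1 list a condition no test was made.

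Read gene by gene, 17 of 135 genes called higher (12.6%) had a peak in the TAM and not in the NT list, against 3 of 139 called lower (2.16%) and 1.87% of all genes. The opposite, a peak in the NT and not in the TAM list, held for 28 of 139 genes called lower (20.1%), 10 of 135 called higher (7.41%) and 9.42% of all. With TPL, 21 genes called higher (15.6%) were in the TAM + TPL list alone, against 3.98% of all, and 10 genes called lower (7.19%) in the NT + TPL list alone, against 4.92%. STC1, TNC, SERPINE2 and S100A8 had a peak in the TAM and TAM + TPL lists and in neither NT list. SERPINA1 and ADAM19 had one in the TAM list alone. Among all named genes that were called lower, SAA1, SYT8, C3, DST, COL4A6, MMP28, FSTL1, AXL, CTSD and IGFBP6 had one in the NT list alone. ALOXE3 and PHGDH, which were called higher, also had a peak in the NT list alone. Of the 15 named rises, 3 had a peak in the TAM list and 0 in the NT list. GZMB, TMPRSS4, HBA1, TDRD9, TMEM255B, DYSF, CHGB, SPP1, CRP, DEFB103A and DEFB103B had no listed peak in any condition. BUB1, TPX2 and ASNS, all called higher, had a peak in the NT and NT + TPL lists and none in the TAM list. TPX2 and ASNS had one in the TAM + TPL list, and BUB1 did not. KRT5 had one in every list but TAM + TPL. The names of the peaks carry a different cutoff in the TAM list (q 0.1) from that in the other lists (0.02), and 4584 of its 11056 peaks carry a letter suffix. The part of this difference in the shares without TPL was not tested. The lists with TPL share 1 cutoff, but peak width differed in both pairs of lists. The mean width was 941.0 bases in the NT and 616.6 in the TAM list. With TPL it was 709.6 bases in the NT + TPL and 597.9 in the TAM + TPL list. A wider peak has more room to hold a start site, and the part of width in these shares was not tested.

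**Figure D5:**
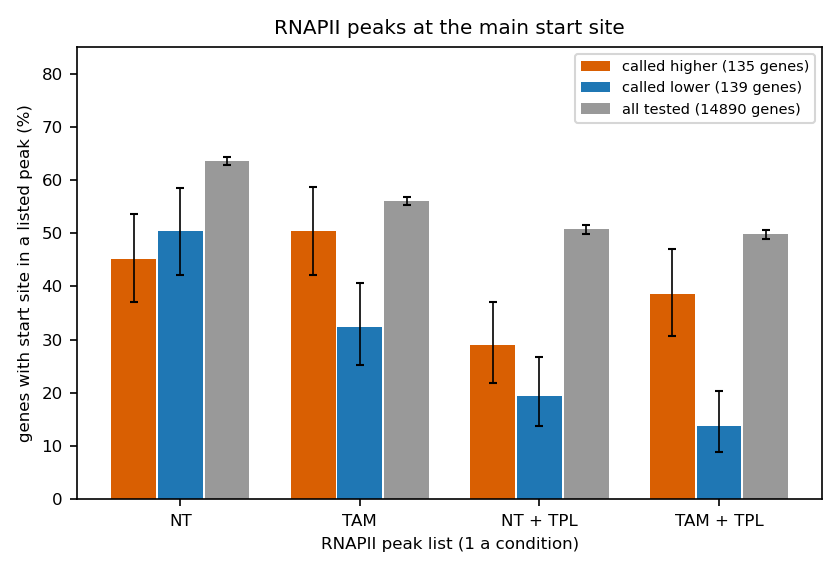
Share of genes whose main start site lies in a listed RNAPII peak (vertical axis, %), for the 4 peak lists (horizontal axis), with bars for genes called higher, genes called lower and all tested genes and error bars of Wilson 95% intervals. From NT to TAM the bar of genes called higher goes from 45.2 to 50.4% and that of genes called lower from 50.4 to 32.4%, and from NT + TPL to TAM + TPL they go from 28.9 to 38.5% and from 19.4 to 13.7%.

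The promoters of called genes held the letters of STAT, AP-1 and NF-kB at shares near those of tested genes. In the 250 bases before the RefSeq start (GRCh38.p14), searched on both strands, STAT letters TTCNNNGAA were found for 3 of 97 genes called higher that had a promoter in the table (3.09%) and 3 of 98 called lower (3.06%), against 5.65% of the 12162 promoters of tested genes and 6.78% of all 27305. AP-1 letters TGANTCA were found for 3 (3.09%) and 5 (5.1%), against 4.56% and 6.6%. NF-kB letters, a loose motif common in GC-rich sequence, were found for 62 (63.9%) and 70 (71.4%), against 67.7% and 53.7%. Among the named called genes whose promoter was read, GZMB of the rises and BBOX1, PERP and SLC3A2 of the falls held AP-1 letters. SLC3A2 also held STAT letters. Other named calls, such as STC1, SFRP1, KRT17 and VEGFA, were not read one by one for these letters. The upstream bases of GZMB, BBOX1, PERP and SLC3A2 are shown because only they, of those read, had either match. Matches to any of the motifs are in capitals. They lie at chr14:24634191-24634440 (GZMB, minus strand), chr11:27040565-27040814 (BBOX1, plus strand), chr6:138107420-138107669 (PERP, minus strand) and chr11:62881449-62881698 (SLC3A2, plus strand).
GZMB: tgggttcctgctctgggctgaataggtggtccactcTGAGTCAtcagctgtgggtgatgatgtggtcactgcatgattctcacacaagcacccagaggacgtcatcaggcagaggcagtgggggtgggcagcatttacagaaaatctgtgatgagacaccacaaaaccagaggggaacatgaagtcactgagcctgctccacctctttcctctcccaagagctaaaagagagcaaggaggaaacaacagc
BBOX1: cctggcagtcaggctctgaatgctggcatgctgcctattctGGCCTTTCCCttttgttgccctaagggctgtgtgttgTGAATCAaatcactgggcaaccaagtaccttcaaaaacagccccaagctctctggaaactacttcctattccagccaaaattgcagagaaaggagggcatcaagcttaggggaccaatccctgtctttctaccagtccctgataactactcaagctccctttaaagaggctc
PERP: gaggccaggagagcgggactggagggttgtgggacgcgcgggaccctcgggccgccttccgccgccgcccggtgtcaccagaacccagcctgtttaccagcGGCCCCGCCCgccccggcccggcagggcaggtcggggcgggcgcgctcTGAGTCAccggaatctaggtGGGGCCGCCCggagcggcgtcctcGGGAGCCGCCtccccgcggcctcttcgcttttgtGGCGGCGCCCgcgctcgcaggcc
SLC3A2: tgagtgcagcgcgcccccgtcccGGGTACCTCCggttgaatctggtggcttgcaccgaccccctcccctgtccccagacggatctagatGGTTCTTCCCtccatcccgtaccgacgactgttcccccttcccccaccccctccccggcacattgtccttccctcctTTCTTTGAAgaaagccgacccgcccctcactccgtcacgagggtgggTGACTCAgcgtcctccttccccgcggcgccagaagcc
A match is a description of letters and not a binding site.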

How the data were processed

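Poly-A RNA of 8 libraries had been sequenced, and the authors aligned the reads to transcripts and to hg19 and estimated gene levels with RSEM, using the tools Bowtie2 and BWA. The deposited files hold an expected count and an FPKM value per entry (a gene ID or accession). The other measurement used, the deposited RNAPII peak lists (peak positions from MACS 1.4.2), has 1 list a condition, and the authors' peak score was not used. The ChIP samples of the series were used only through those lists.

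Expected counts were rounded, entries missing from a file were set to 0, and entries too low by edgeR's filterByExpr were left out. edgeR 4.0.16 (TMM factors 0.975 to 1.03, robust quasi-likelihood, R 4.3.3) fitted tamoxifen with TPL as covariate, 4 against 4, with 5 residual degrees of freedom and Benjamini-Hochberg adjustment over 16948 entries. Calls were made at an adjusted p up to 0.001 with a change of 1.2 or more on the log2 scale, the methods' thresholds. SE is the size of the log2 fold change over the square root of F. Symbols with several entries took their values from a fit of summed counts. Libraries of a group differed beyond sampling noise (chi-square per degree of freedom 9.36 to 30.5, the highest in NT + TPL).

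On simulated counts with the same design and 16948 entries, calls were counted among 50 genes for each size of change. Called were 0 genes changed 2-fold, 10 changed 3-fold, 23 changed 5-fold and 28 changed 8-fold, with 0 false calls. A true 2-fold change lies under the fold change that a call requires, so it is called only where its estimate comes out larger. Its 0 thus reflects the threshold as well as detection. With an adjusted p up to 0.05 these counts were 3, 18, 36 and 38, with 6 false calls among 16748 unchanged entries. Named genes were up to 15 rises and 15 falls with the largest fitted change (mean of at least 1 FPKM, a lone entry, arms apart), up to 4 called members a list or those with the smallest p, SRC, ESR1, STAT3 and IL6, and the called genes with the smallest interaction p. Of these and the marker genes, 1 named rise and 1 marker are not reported here. The comparison, members and lists were chosen with earlier results of these data known. Promoters and motif letters came from RefSeq (GRCh38.p14). Alternatives used DESeq2 1.42.0 and limma 3.58.1, and FPKM values entered limma as log2(FPKM + 1) or log2(FPKM + 0.1).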

Additional observations from a re-analysis of the deposited data

Results flagged for a closer look

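The effect of TAM on ID3 differed between treatments by a test of the difference itself. The log2 fold change of TAM over NT was 2.11 higher with TPL than with DMSO (-3.85 with DMSO and -1.74 with TPL, adjusted p = 0.0298 by edgeR). ID3 was lower in all 4 TAM libraries than in all 4 NT libraries and was not called in the comparison of 4 against 4.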

How the results depend on the processing

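Against 137 rises and 144 falls, DESeq2 called 397 and 367, an adjusted p of 0.05 gave 427 and 443, summed counts per symbol 259 and 282, no TPL covariate 28 and 18, and the 4 TPL libraries alone 24 and 5. Equal GAPDH counts gave 296 falls. Leaving out 1 library gave 68 to 124 rises and 64 to 144 falls. The replicate block gave 90 rises and 92 falls, of which 90 and 90 were among the calls. Replicate numbers did not pair the samples (correlations of deviations -0.135 to 0.05). With DMSO, an adjusted p of 0.05 gave 575 and 535 and a minimum of 10 counts 286 and 288, and with TPL 293 and 362, and 56 and 63. The interaction gave 84 and 66 by DESeq2 and 26 and 26 at 0.05. Scaling by DESeq2 size factors, library size or upper quartile, no filter and limma moved the counts by less than 1.5 times. Of 1731 comparisons of the 73 named called genes with an alternative, 1373 kept the call, 358 lost it and 0 turned. With a library left out, 38 of the 73 held in all 8 fits. STAT3 turned to -0.04 with equal GAPDH counts. With 8 libraries and a biological coefficient of variation of 0.338, only 10 of 50 simulated 3-fold changes were called. A true change under the fold change threshold is called only where its estimate passes that threshold. Of 50 simulated 2-fold changes 0 were called, and 3 at an adjusted p up to 0.05.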
